A study of Mus musculus with 4 samples.

Results

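The genomic sites of Tfcp2l1 around 10 genes that drive cells through mitosis are described here: Cdk1, Ccnb1, Ccnb2, Ccna2, Cdc25c, Aurka, Aurkb, Plk1, Bub1 and Cdc20. A peak was taken when its summit lay inside 1 of these genes, or within 50 kb of either end, by RefSeq positions of GRCm38. This gave 66 of the 57614 peaks in repeat 1 and 62 of the 51610 peaks in repeat 2. The choice used position alone and not the height of a peak. The data come from chromatin immunoprecipitation followed by sequencing (ChIP-seq) of wild-type mouse embryonic stem cells, with a custom antibody to mouse Tfcp2l1. All cells were untreated and grew in medium with LIF at 1000 units/mL, the GSK3 inhibitor CHIR99021 at 3 µM and the MEK inhibitor PD0325901 at 1 µM. The 4 libraries form 2 repeats, each with 1 ChIP library and 1 input library of chromatin that was not precipitated. The labels do not say whether the repeats were separate cultures, so their spread may be technical. Peak lists measure neither expression nor cell identity, and the labelled cell type could not be checked against marker genes.

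Entry into mitosis is driven by the kinase Cdk1 bound to a cyclin of the B type, with cyclin A2 acting earlier in G2. The phosphatase Cdc25c removes inhibitory phosphates from Cdk1, and the kinases Plk1, Aurora A and Aurora B build the spindle and correct chromosome attachment. Bub1 acts in the spindle checkpoint, which holds back Cdc20, the activator of the anaphase-promoting complex (APC/C), until all chromosomes are attached. Transcripts of these genes rise in G2 through promoter elements known as CCAAT boxes, bound by NF-Y, and cell cycle homology regions (CHR), bound by MuvB complexes. Embryonic stem cells have a short G1 phase and spend much of their time in S and G2. Tfcp2l1 is a factor of the CP2 family that supports naive pluripotency downstream of LIF.

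The promoters of 5 of these genes are shown because a shared Tfcp2l1 peak covered that of Cdc20 and none covered the other 4. A peak counts as shared when it overlaps, by 1 bp or more, a peak called in the other repeat. RefSeq promoter windows of build GRCm38.p6 were matched for 7 of the 10 genes, and each runs from 250 bases before the start site to the first 50 bases of the transcript, 300 in all. The 5 windows are those of Cdc20 (chr4:118437294-118437593, minus strand), Cdk1 (chr10:69352863-69353162, minus strand), Ccnb1 (chr13:100786437-100786736, minus strand), Ccnb2 (chr9:70421505-70421804, minus strand) and Plk1 (chr7:122159185-122159484, plus strand). They are written 5′ to 3′ along the gene, with capitals marking CCAAT or its reverse complement ATTGG, and the CHR letters TTTGAA.
Cdc20: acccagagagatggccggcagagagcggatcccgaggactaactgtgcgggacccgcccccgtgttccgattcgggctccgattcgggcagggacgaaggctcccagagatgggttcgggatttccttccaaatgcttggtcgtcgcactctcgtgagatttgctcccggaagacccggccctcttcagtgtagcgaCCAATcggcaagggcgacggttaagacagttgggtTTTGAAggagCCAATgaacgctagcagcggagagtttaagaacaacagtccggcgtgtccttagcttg
Cdk1: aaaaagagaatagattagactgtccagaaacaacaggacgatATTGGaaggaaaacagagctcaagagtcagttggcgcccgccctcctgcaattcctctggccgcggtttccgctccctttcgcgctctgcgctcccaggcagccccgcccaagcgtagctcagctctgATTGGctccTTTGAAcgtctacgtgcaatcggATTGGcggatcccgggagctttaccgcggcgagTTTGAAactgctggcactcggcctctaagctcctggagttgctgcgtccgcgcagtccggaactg
Ccnb1: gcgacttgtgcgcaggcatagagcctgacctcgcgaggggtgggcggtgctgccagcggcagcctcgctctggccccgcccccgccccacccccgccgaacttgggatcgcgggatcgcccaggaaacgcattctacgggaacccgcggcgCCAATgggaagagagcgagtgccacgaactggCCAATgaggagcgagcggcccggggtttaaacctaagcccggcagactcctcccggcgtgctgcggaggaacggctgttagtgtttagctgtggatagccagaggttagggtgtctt
Ccnb2: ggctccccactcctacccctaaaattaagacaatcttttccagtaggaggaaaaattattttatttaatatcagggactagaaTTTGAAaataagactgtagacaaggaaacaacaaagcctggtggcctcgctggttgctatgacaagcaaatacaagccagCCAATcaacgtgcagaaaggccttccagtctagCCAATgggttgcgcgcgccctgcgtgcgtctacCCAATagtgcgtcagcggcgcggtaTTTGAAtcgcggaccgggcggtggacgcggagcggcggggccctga
Plk1: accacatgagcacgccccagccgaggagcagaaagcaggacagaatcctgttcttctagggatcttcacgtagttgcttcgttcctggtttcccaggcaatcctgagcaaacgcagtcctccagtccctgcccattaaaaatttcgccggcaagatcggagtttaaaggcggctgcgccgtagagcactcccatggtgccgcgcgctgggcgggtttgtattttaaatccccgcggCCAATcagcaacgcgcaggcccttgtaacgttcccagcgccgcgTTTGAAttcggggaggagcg

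All 7 matched windows, those of Aurka and Bub1 included, held a CCAAT box on either strand, against 37.4% of the 32851 promoter windows in the RefSeq table. CHR letters (TTTGAA or TTCGAA, either strand) stood in 6 of the 7, with Ccnb1 the exception, against 19.2% of all windows. Both elements together stood in 6 of 7, against 7.52%. Cdk1 and Ccnb2 held the most, with 3 CCAAT boxes and 2 CHR matches each. The letters CCAGNNNNNNCCAG, a strict form of the paired half-sites known for Tfcp2l1, were searched on both strands and stood in none of the 7 windows, against 3.44% of all windows. Across the whole table these letters stood in 5.39% of the 5900 windows that a shared peak overlapped in both repeats, and in 3.01% of the other 26951. CHR letters stood in 13.0% of the overlapped windows and in 20.6% of the others, and a CCAAT box in 37.9% and 37.3%. A match describes letters in these windows and not a site of binding.

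**Figure D1:**
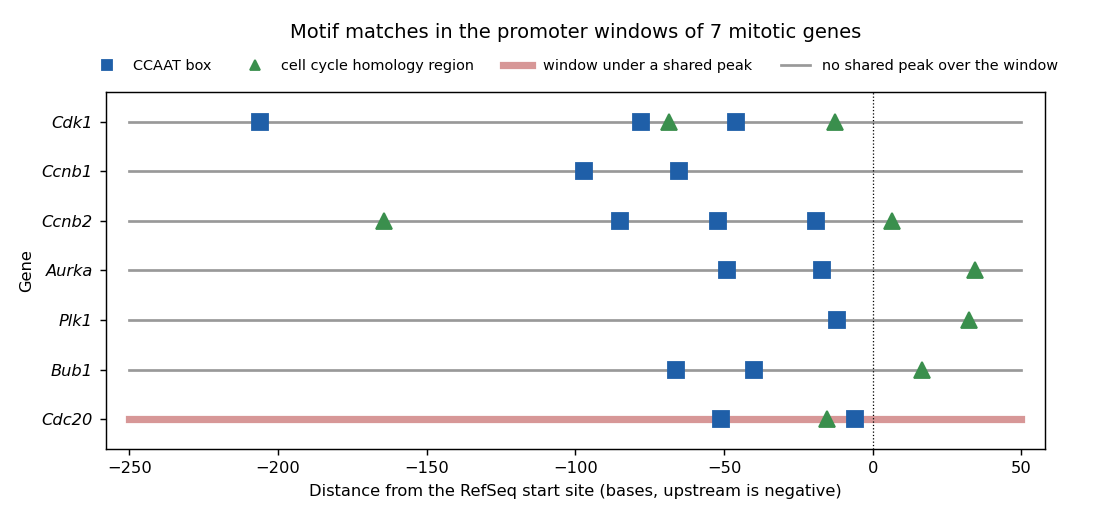
Positions of CCAAT boxes (squares) and CHR letters (triangles) in 7 promoter windows, as distance from the RefSeq start site in bases. The thick line marks Cdc20, the window under a shared peak, and thin lines mark the other 6.

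Shared Tfcp2l1 peaks lay at 9 of the 10 mitotic genes, and Ccnb2 was the exception. Over all 21883 protein-coding genes, 80.6% had a shared peak by the same rule, so a count of 9 is near the background. The number per gene ran from 0 at Ccnb2 to 11 at Cdk1, with a median of 4, equal to the median of 4 over all genes. Within 10 kb, 9 of 10 genes had a shared peak, against 64.5% of all genes. A shared summit lay inside 5 of them (Cdk1, Ccna2, Cdc25c, Aurka and Aurkb), against 44.8%. A shared summit lay within 1 kb of a gene end at 4 of 10 (Ccna2, Cdc25c, Aurkb and Cdc20), against 28.9%. With repeat 1 alone all 10 genes had a peak within 50 kb, against 85.5% of all genes, and 5 had one within 1 kb of an end, against 37.3%. With repeat 2 alone the counts were 9, against 82.9%, and 4, against 31.2%. The genes were chosen with earlier results known, so these shares are a description and no test was made.

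**Figure D2:**
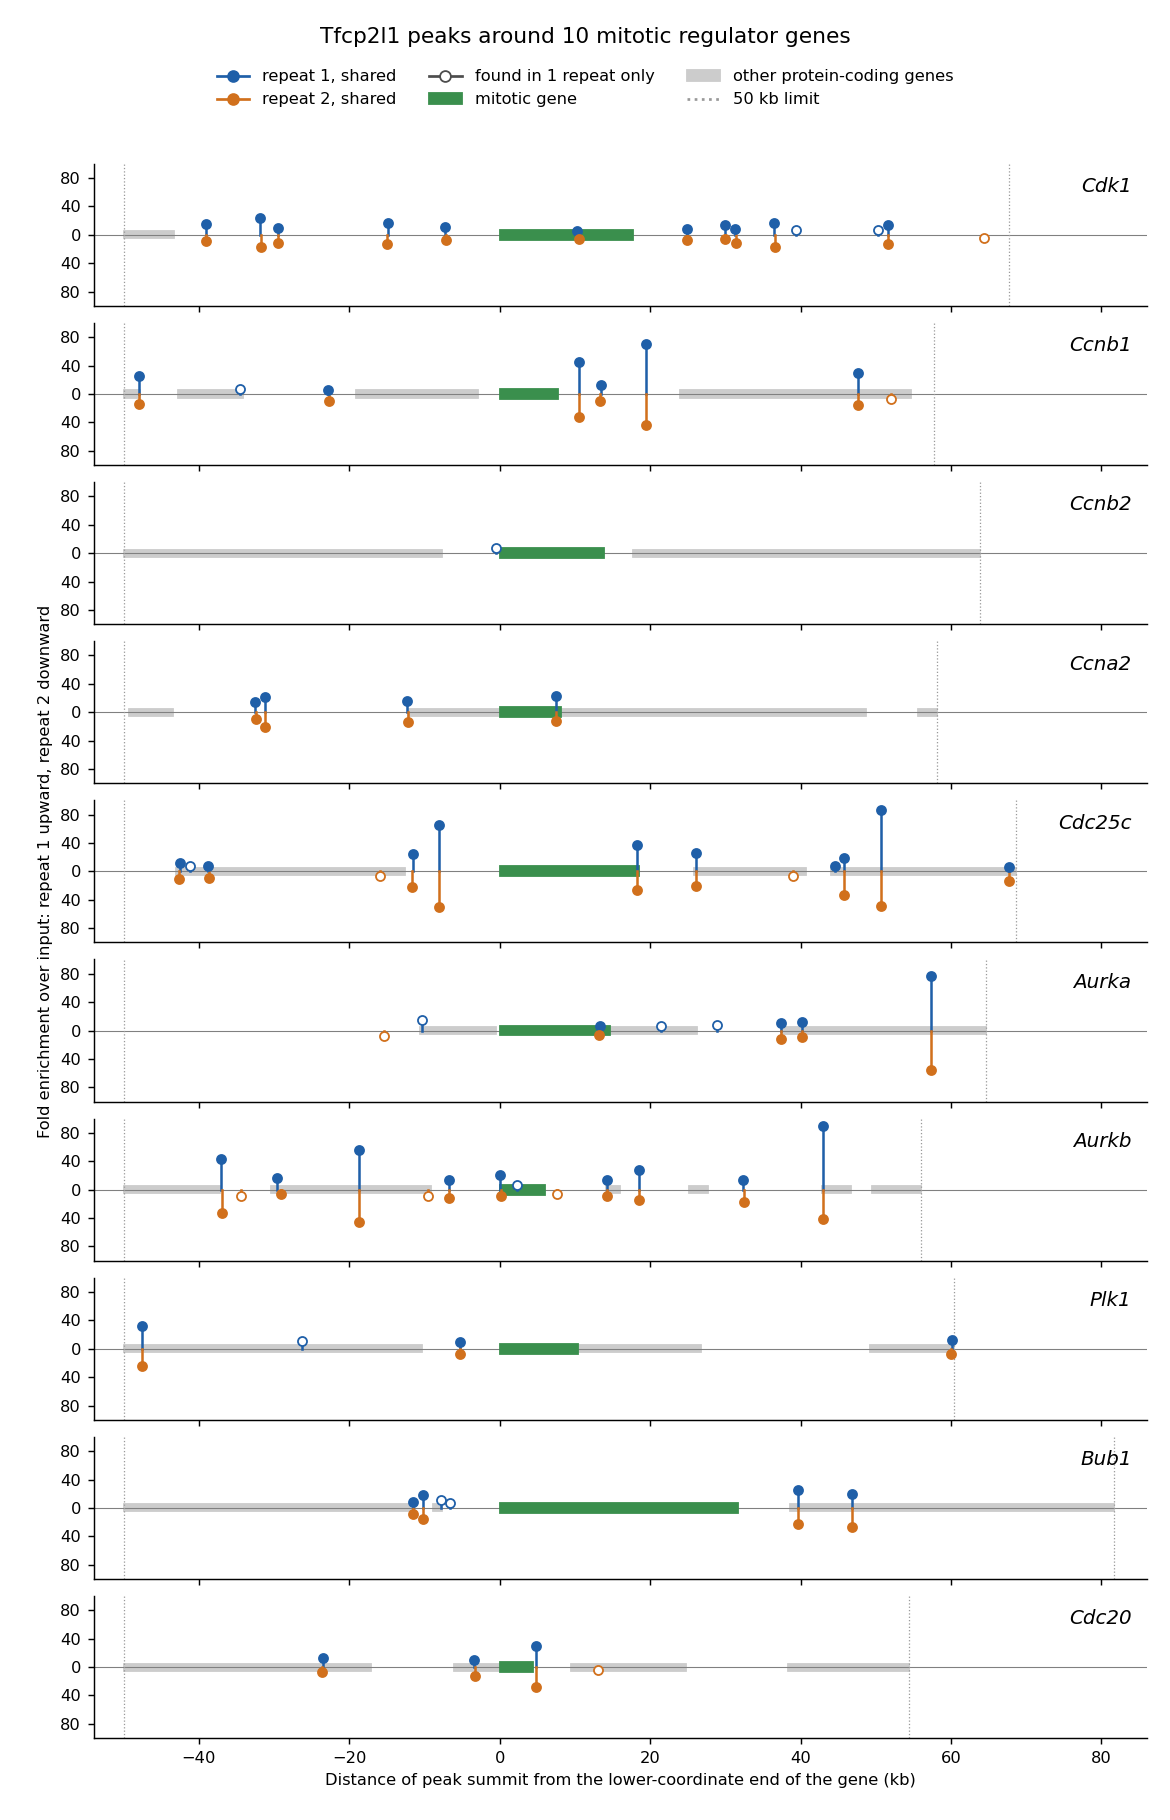
Peaks in and around each gene, by distance of the summit from the gene's lower-coordinate end (kb), with fold enrichment over input in repeat 1 drawn upward and in repeat 2 downward. Filled points are shared peaks, open points are found in 1 repeat, and Cdk1 carries the most shared peaks (11) while Ccnb2 carries none.

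Cdk1, the kinase whose activity defines mitosis (chromosome 10, 69335146 to 69352912), had 13 peaks in repeat 1 and 12 in repeat 2, of which 11 in each were shared. More shared peaks lay around it than around 90.1% of protein-coding genes. They were spread over the window, with 5 below the gene, 1 inside it and 5 above it. None stood in the strongest 10% of its list. Fold enrichment is given by the authors as the summit's ChIP tags over the background expected there. It ran from 5.96 to 23.0 in repeat 1 and from 6.15 to 17.3 in repeat 2. Medians were 13.53 and 10.99, against 15.5 and 11.5 over all shared peaks. The single peak inside the gene was the weakest, with 40 tags and 5.96-fold in repeat 1 and 37 tags and 6.15-fold in repeat 2. Its summits were 219 bp apart in the 2 repeats.

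The strongest shared peak of the Cdk1 window lay 31.9 kb below the gene (69302734 to 69303860), with 89 tags and 23.0-fold in repeat 1 and 76 tags and 17.3-fold in repeat 2. It was nearer to the gene Rhobtb1, at 11.5 kb. Of the 11 shared peaks, 8 had Cdk1 as their nearest protein-coding gene, the most of any gene in the set. Rhobtb1 was the only other protein-coding gene in the window, the fewest neighbours of any gene in the set. A peak among the 8, with 10.6-fold and 7.85-fold, overlapped the promoter window of 4930423B08Rik, which is not counted among the protein-coding genes. The shared summit nearest to the Cdk1 start site lay 7082 bp upstream in repeat 1 and 7072 bp in repeat 2, with 8.58-fold and 7.46-fold enrichment. No peak of either repeat covered the promoter printed above.

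The cyclin genes differed from each other. Ccnb1, which encodes the main mitotic cyclin (chromosome 13, 100778739 to 100786486), had 7 peaks in each repeat, 6 of them shared. The shared peak closest to the gene (100788956 to 100789852) had its summit 2825 bp upstream of the start site in repeat 1 and 2814 bp in repeat 2. It held 157 tags (exact 95% counting interval 133 to 184) at 44.7-fold, and 154 tags (131 to 180) at 33.0-fold. This was the strongest shared peak of the whole set for which a mitotic gene was the nearest gene. A stronger one followed at 11.7 kb (100797545 to 100798638), with 197 tags at 70.1-fold and 164 tags at 43.6-fold, nearer to the zinc transporter gene Slc30a5 at 4.501 kb. Both stood among the strongest 10% of their lists, at or above 43.4-fold in repeat 1 and 32.2-fold in repeat 2. The window also took in Cdk7, the kinase that activates Cdk1, whose promoter lay under a shared peak of 24.7-fold and 14.7-fold.

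Ccnb2, the second B-type cyclin gene (chromosome 9, 70407689 to 70421554), had no shared peak in a window of 113.9 kb. Its 1 peak, in repeat 1 alone, had 31 tags (21.1 to 44.0) at 7.55-fold. The summit lay 524 bp beyond the lower end of the gene, which is the end away from the start site. Peaks found in repeat 1 alone had a median of 7.73-fold over the whole list. Both neighbours, the myosin gene Myo1e and the ubiquitin ligase gene Rnf111, reach into the window, and no shared summit lay in those stretches.

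Ccna2, which encodes cyclin A2 (chromosome 3, 36564865 to 36573038), had 4 peaks in each repeat and all were shared. The peak inside the gene had its summit 701 bp from the upper end in repeat 1 and 655 bp in repeat 2. It had 82 tags at 22.7-fold in repeat 1 and 54 tags at 12.6-fold in repeat 2. That was the highest of the 4 in repeat 1 and the second lowest in repeat 2, where a peak 31.3 kb below the gene led with 109 tags at 20.7-fold. A shared peak of 15.9-fold and 13.7-fold lay at an end of Exosc9, an RNA exosome subunit gene that overlaps the other end of Ccna2.

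Cdc25c, the phosphatase gene (chromosome 18, 34732993 to 34751564), had 11 peaks in each repeat. Of these, 10 of repeat 1 and 9 of repeat 2 were shared, since 2 adjacent peaks of repeat 1 matched 1 of repeat 2. A peak inside the gene (34750880 to 34751758) had its summit 337 bp from the upper end in repeat 1 and 341 bp in repeat 2. It had 104 tags (85.0 to 126) at 36.7-fold and 119 tags (98.6 to 142) at 26.8-fold. Among the 5 shared peaks inside a mitotic gene it was the strongest in both repeats. Peaks of higher enrichment flanked the gene. One lay 8.07 kb below it, with 186 tags at 65.7-fold and 202 tags at 49.5-fold, and was nearer to Gfra3, a receptor gene of the GDNF family. Another lay 32.2 kb above it, inside the histone demethylase gene Kdm3b, with 267 tags at 86.5-fold and 204 tags at 48.7-fold.

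The 2 Aurora kinase genes had unlike surroundings. Aurka (chromosome 2, 172356190 to 172370886) had 7 peaks in repeat 1 and 5 in repeat 2, with 4 shared. Its own site was weak: the peak inside the gene had 29 tags at 6.61-fold and 38 tags at 6.92-fold, with the summit 1051 and 1121 bp downstream of the start site. The strongest of the window, 252 tags at 76.7-fold and 211 tags at 56.1-fold, lay 42.6 kb away inside Cass4, a scaffold protein gene of the Cas family. A peak of 51 tags and 15.2-fold inside Fam210b, 10.3 kb from Aurka, was called in repeat 1 alone. It was the highest of the 21 peaks of the set found in a single repeat.

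Aurkb (chromosome 11, 69045624 to 69051664) had 10 peaks in repeat 1 and 12 in repeat 2, with 9 shared, more than 83.0% of protein-coding genes. A shared summit stood inside the gene, 98 bp from its lower end in repeat 1 and 106 bp in repeat 2. It had 69 tags (53.7 to 87.3) at 20.8-fold, and 43 tags (31.1 to 57.9) at 8.63-fold. The counting intervals overlap narrowly, although repeat 2 was the deeper library. The fold enrichment in repeat 2 was 0.416 times that in repeat 1, and 5.18% of all matched pairs had a lower ratio. Repeat 1 had a further peak inside Aurkb (25 tags, 6.07-fold) and repeat 2 a further peak 1.565 kb above it (39 tags, 6.47-fold), neither of them shared. Shared peaks of higher enrichment lay farther off, at the telomere protein gene Ctc1 (56.1-fold and 45.9-fold, 18.8 kb away) and at the synaptic vesicle gene Vamp2 (89.9-fold and 41.2-fold, 36.9 kb away). The Vamp2 peak, with 463 tags and 254 tags, was the highest of the set in repeat 1.

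Plk1, the polo-like kinase gene (chromosome 7, 122159435 to 122169884), had few and mostly distant sites, with 4 peaks in repeat 1 and 3 in repeat 2, of which 3 were shared. The nearest shared summit lay 5295 bp upstream of the start site in repeat 1 and 5319 bp in repeat 2, with 24 tags at 9.18-fold and 29 tags at 7.06-fold. It was nearer to Dctn5, a dynactin subunit gene, at 5.096 kb. The strongest lay 47.6 kb away inside Palb2, a partner gene of Brca2, with 149 tags at 32.7-fold and 99 tags at 23.9-fold. The last lay at the very edge of the window, 49.6 kb from Plk1 at the Chp2 promoter, with 12.9-fold and 7.06-fold. The nearest peak outside the limit belonged to Aurka, at 50.7 kb, with 10.6-fold and 7.46-fold.

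Bub1, the checkpoint kinase gene (chromosome 2, 127800197 to 127831859), had 6 peaks in repeat 1 and 4 in repeat 2, with 4 shared. None lay inside the gene, which at 31.7 kb is the longest of the 10, and none had Bub1 as its nearest gene. The shared summit nearest to its start site lay 7927 bp upstream in repeat 1 and 7951 bp in repeat 2, inside the neighbouring gene Acoxl, with 111 tags at 24.6-fold and 109 tags at 22.5-fold. Here the repeats were close to each other. A second peak inside Acoxl, at 15.2 kb, had 62 tags at 19.8-fold in repeat 1 and 92 tags at 26.3-fold in repeat 2, and led the window in repeat 2.

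Cdc20, the APC/C activator gene (chromosome 4, 118432901 to 118437343), had 3 peaks in repeat 1 and 4 in repeat 2, with 3 shared. The peak at its promoter led the window in both repeats, with 133 tags (111 to 158) at 29.9-fold and 124 tags (103 to 148) at 28.2-fold. The summit lay 322 bp upstream of the start site in repeat 1 and 330 bp in repeat 2. The interval of repeat 1 (118436594 to 118438710) and that of repeat 2 (118437115 to 118438676) both take in the whole promoter window printed above, with its 2 CCAAT boxes and its CHR. Of the 7 promoter windows matched, this was the only one that a shared peak overlapped, against 18% of the 32851 windows in the table. A second shared peak, at the promoter of the fatty acid elongase gene Elovl1 on the other side of Cdc20, had 37 tags at 9.46-fold and 49 tags at 12.6-fold.

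**Figure D3:**
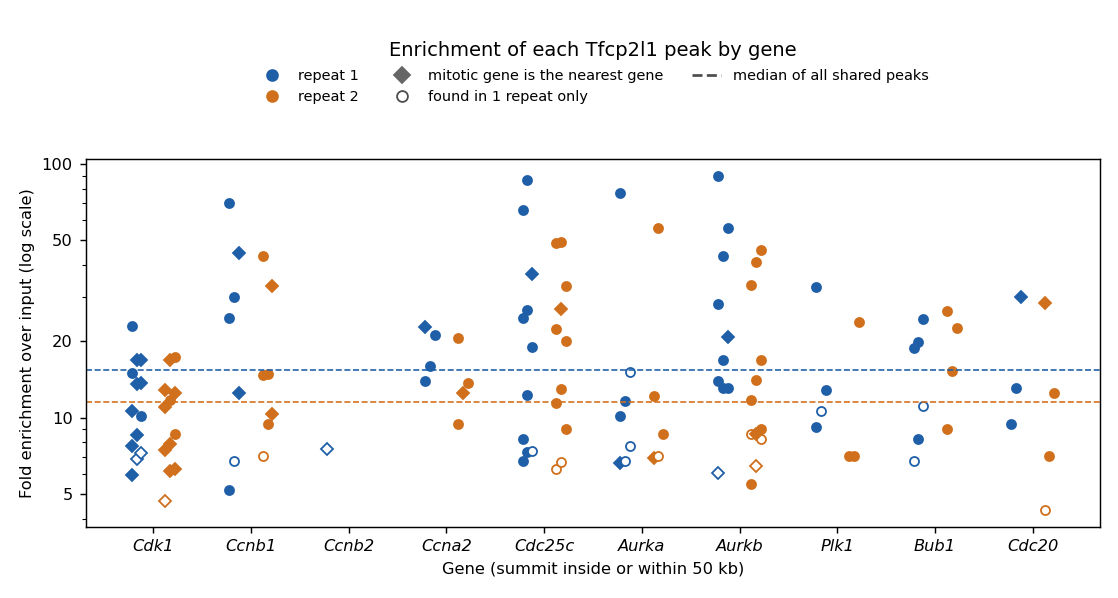
Fold enrichment over input of every peak, by gene (log axis), in repeat 1 (blue) and repeat 2 (orange). Diamonds mark peaks for which the mitotic gene is the nearest gene, open symbols peaks of a single repeat, and dashed lines the medians of all shared peaks (15.5 and 11.5).

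Of the 54 shared peaks of repeat 1, 15 had the mitotic gene as nearest protein-coding gene and 39 had another, 22 of the latter inside that other gene. Repeat 2 gave 15 and 38 of 53. The shares nearest to the mitotic gene were 27.8% and 28.3%, against 39.8% and 39.6% for the same windows around all protein-coding genes, where most shared peaks also lay nearer to a neighbour. Of the 15 peaks nearest to a mitotic gene, 8 belonged to Cdk1, with a median fold enrichment of 12.1 in repeat 1 and 9.42 in repeat 2. The other 7 had medians of 22.7 and 12.6, and peaks nearest to another gene had medians of 16.9 and 14.4. Over all 15 the medians were 13.7 and 10.99, so that in repeat 1 they lay below the peaks nearest to another gene with Cdk1 and above them without it, and in repeat 2 below them both ways. In the strongest 10% of each list stood 8 shared peaks of repeat 1 and 9 of repeat 2, all at Ccnb1, Cdc25c, Aurka or Aurkb. Only 1 of these in either repeat, that of 44.7-fold and 33.0-fold upstream of Ccnb1, had the mitotic gene as its nearest. Of the shared peaks of the set, 14.8% and 16.98% were in the strongest 10%, against 13.1% and 11.98% of all shared peaks. Medians over the set were 16.4-fold and 12.9-fold, against 15.5-fold and 11.5-fold over all shared peaks.

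The 2 repeats found largely overlapping sites. Of the 66 peaks of repeat 1, 54 were shared (81.8%, exact 95% interval 70.4% to 90.2%), and of the 62 of repeat 2, 53 (85.5%, 74.2% to 93.1%). Over the whole lists 76.1% and 84.8% were shared. The 12 peaks found in repeat 1 alone had a median of 31.5 tags and 7.31-fold enrichment, and the 9 of repeat 2 alone had 26 tags and 6.67-fold. Shared peaks of the set had medians of 55.5 and 59 tags. Matched pairs of 1 peak in each repeat numbered 52, and their summits lay a median of 23.5 bp apart, 49 of them within 100 bp. The widest gap, 543 bp, was at the promoter of Ctc1 near Aurkb, where fold enrichment was 16.9 in repeat 1 and 5.49 in repeat 2. That pair also had the lowest ratio of repeat 2 to repeat 1, 0.325. The highest ratio, 1.92, was that of a peak inside Kdm3b near Cdc25c, with 6.75-fold and 12.95-fold.

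Fold enrichment was lower in repeat 2 for 39 of the 52 pairs (75.0%), against 78.2% of all 41701 such pairs. The median log2 ratio of repeat 2 to repeat 1 was -0.38 (SD 0.52) for the set and -0.39 (SD 0.52) for all pairs. Spearman's rank correlation between the repeats was 0.802 over the 52 pairs and 0.813 over all pairs. These pairs share libraries and depth and are not independent replicates, so the values are a description. Filtered ChIP depth was 19353473 tags in repeat 1 and 22555373 in repeat 2, and filtered input depth was 18446758 and 23825930.

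**Figure D4:**
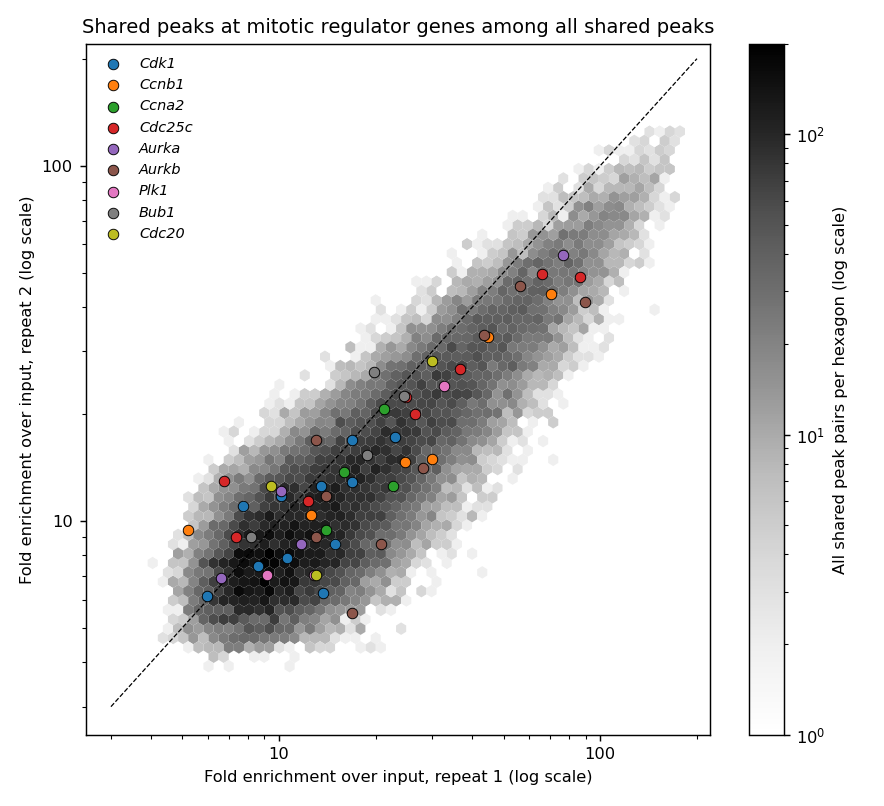
Fold enrichment over input in repeat 1 against repeat 2 (log axes) for the 52 matched pairs at mitotic genes (coloured by gene) over all 41701 matched pairs (grey hexagons). Most coloured points lie below the dashed line of equality, as 78.2% of all pairs do, and Ccnb2 has no pair.

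Other genes of mitosis were examined from 7 lists of 75 genes. Of these, 73 had a shared peak inside or within 50 kb (97.3%, against 80.6% of all protein-coding genes), 65 within 10 kb (86.7%, against 64.5%) and 37 within 1 kb of an end (49.3%, against 28.9%). The cyclin gene Ccnb3 on chromosome X and the kinetochore motor gene Cenpe had no peak of either repeat. No test of the lists was made, since they were written with earlier results of these data known. For each list below, the strongest peak of a gene is the highest within 50 kb, whichever gene lies nearest to it. The nearest genes of these peaks are not given, so a peak outside the named gene may lie nearer to another. A peak can also count for more than 1 gene.

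Genes of the APC/C, whose activator is Cdc20, had the highest share of the mitotic lists at gene ends, with 9 of 15 within 1 kb. The strongest peaks of that list lay inside Anapc7 (100.1-fold and 92.6-fold), 35.8 kb from the activator gene Fzr1 (111.3-fold and 64.0-fold) and 25.9 kb from Cdc26 (83.1-fold and 76.1-fold). In the spindle checkpoint list, 8 of 8 genes had a shared peak within 50 kb and 4 of 8 within 1 kb of an end. Bub1b, which encodes BubR1, the relative of Bub1, had its strongest shared peak inside the gene (107.7-fold and 80.8-fold), against at most 24.6-fold and 26.3-fold near Bub1. Mad1l1 (122.7-fold and 56.5-fold, 10.7 kb away) and Zw10 (65.0-fold and 44.7-fold, 31.9 kb away) followed.

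The partners of Aurora B in the chromosomal passenger complex, listed with cohesin regulators, had 9 of 9 within 50 kb and 3 of 9 within 1 kb of an end. Their strongest peaks were near Birc5, Incenp and Cdca8. That of Birc5, which encodes survivin, had 95.3-fold and 68.7-fold and lay 16.9 kb away, in a window of 17 shared peaks. Those of Incenp (71.0-fold and 50.2-fold) and Cdca8 (54.8-fold and 63.5-fold) lay 8.15 kb and 11.7 kb away. Regulators of mitotic entry had 11 of 12 within 50 kb and 6 of 12 at an end. Among these, the strongest were Arpp19 (107.2-fold and 64.8-fold, 13.3 kb away), Cks1b (98.1-fold and 64.8-fold, 36.7 kb away) and Ensa (59.8-fold and 63.2-fold, 36.1 kb away). Arpp19 and Ensa encode inhibitors of the phosphatase that opposes Cdk1.

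Spindle and cytokinesis genes had 13 of 13 within 50 kb and 7 of 13 at an end. The peak at the contractile ring gene Anln (0.182 kb away) had 123.0-fold in repeat 1 and 28.6-fold in repeat 2, the one inside the kinesin gene Kif18a had 64.7-fold and 52.3-fold, and that of Tpx2, the activator of Aurora A, lay 43.4 kb away with 69.6-fold and 41.6-fold. Kinetochore genes had 6 of 7 and 2 of 7, led by Cenpf (83.6-fold and 47.5-fold, 3.445 kb away), Spc25 (77.55-fold and 39.2-fold, inside) and Spc24 (40.4-fold and 62.0-fold, 8.37 kb away). Factors that control the transcription of mitotic genes had 11 of 11 and 6 of 11, with a median of 10 shared peaks per gene. The MuvB subunit genes Lin37 (109.2-fold and 58.5-fold, 40.4 kb away) and Lin54 (65.9-fold and 62.7-fold, inside) led that list, with Mybl2 (60.9-fold and 44.0-fold, 22.2 kb away).

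Cyclins and kinases of G1, listed for contrast, had 10 of 10 within 50 kb and 7 of 10 within 1 kb of an end, with a median of 7.5 shared peaks per gene. Ccnd3 led with 135.7-fold and 95.8-fold inside the gene. The strongest peak per gene had a median of 48.2-fold and 32.1-fold in the G1 list, 52.6-fold and 34.5-fold over the 73 other mitotic genes that had one, and 41.5-fold and 28.2-fold over all protein-coding genes with a shared peak. For the 9 mitotic regulators with a shared peak the values were 32.7-fold and 28.2-fold.

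**Figure D5:**
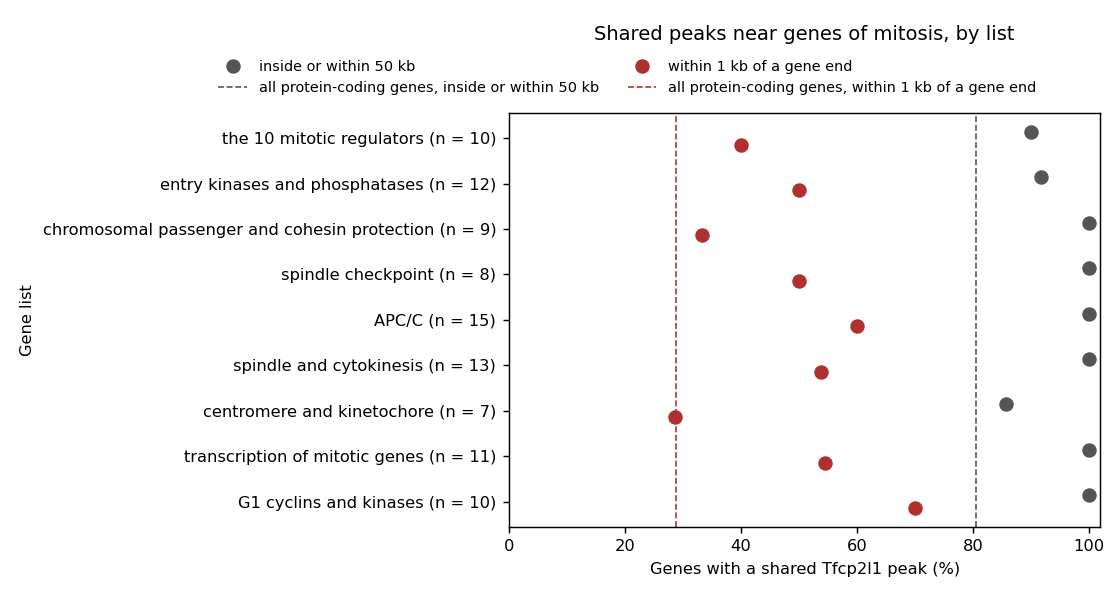
Percentage of genes with a shared peak inside or within 50 kb (grey) and within 1 kb of a gene end (red), for the 10 mitotic regulators, 7 other lists of mitotic genes and the G1 list. Dashed lines give the same share over all protein-coding genes (80.6% and 28.9%).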

How the data were processed

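The analysis used the 2 deposited peak lists, 1 per repeat, which were not pooled. Per the file headers, the authors called peaks with MACS 1.4.1 for each ChIP library against the input of its repeat, with a p-value cutoff of 1e-05, tags of 35 bp and at most 2 duplicates per position. Per the submitters' processing notes, CASAVA 1.8.2 was also used, and no aligner is named. Each deposited tag count gives the ChIP tags of a peak without normalization. In the deposited lists the score is the -log10 p-value multiplied by 10, fold enrichment is a ratio to the local background, and FDR is a percent. These are the authors' values for single peaks. The notes name the mm9 build, but positions match GRCm38: chromosome Y holds peaks up to 90.8 Mb, and on 18 autosomes 8.99% to 16.9% of summits of repeat 1 lay within 1 kb of a GRCm38 start site, against 1.76% to 2.74% in the bin from 10 to 11 kb. Chromosome 18, which carries Cdc25c, was checked against the ends of protein-coding genes instead: 11.4% of summits of repeat 1 lay within 1 kb of an end and 1.76% in the bin from 10 to 11 kb.

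Genes, promoters and sequences are RefSeq's (GRCm38.p6). Exons and introns were not told apart. Summits are start + summit - 1. Counts were made in Python 3.11.15 with pandas 2.3.3 and scipy 1.17.1, and overlap was tested on simulated data. Intervals are exact (Clopper-Pearson or Poisson) at 95% and cover counting error only. Members and lists were chosen with earlier results of these data known, so no set was tested. Named are all 10 genes with their strongest and nearest shared peaks, up to 3 genes per other list by mean fold enrichment, and up to 4 without a shared peak; other peaks were named after their values were seen. All 85 genes of the other lists were matched. Alternatives were stricter peak limits, other overlaps, other windows and each repeat alone.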

Additional observations from a re-analysis of the deposited data

How the results depend on the processing

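The count of 9 mitotic genes with a shared peak was 9 under stricter limits on FDR (0.01%), fold enrichment (10) or score (100), under both stricter definitions of overlap and within 10 kb, and was 7 by nearest gene, 6 within 1 kb and 5 for summits inside the gene. Using 1 repeat alone gave 9 to 10 genes within 50 kb, 4 to 5 within 1 kb of an end, and 73 of the other mitotic genes within 50 kb. With shared peaks, 43 of the other mitotic genes had a summit inside. Numbers of peaks follow the limits by construction. In repeat 2 the FDR limit did not follow enrichment. It removed shared peaks of 43.6-fold near Ccnb1 (FDR 0.03%) and 48.7-fold near Cdc25c (FDR 0.04%). It kept that of 56.1-fold near Aurka, and also 1 of 7.85-fold near Cdk1 (FDR 0.01%). Peaks of repeat 1 and repeat 2 numbered 37 and 36 at an FDR of at most 0.01%, 46 and 36 at a fold enrichment of at least 10, and 47 and 41 at a score of at least 100. They numbered 22 and 20 within 10 kb, 8 and 6 within 1 kb, 6 and 5 inside the gene, and 19 and 17 by nearest gene. Shared peaks of repeat 1 numbered 26 by FDR, 33 by fold enrichment, 17 within 10 kb, 6 within 1 kb, 5 inside and 15 by nearest gene. The share found in both repeats was 70.3% and 72.2% by FDR, where a peak whose partner was removed counts as unshared. By fold enrichment the share was 71.7% and 91.7%, and by score 78.7% and 90.2%. In repeat 2 it was 100% within 1 kb and inside the gene. Median fold enrichment of shared peaks was 22.0 and 16.1 by FDR, 24.6 and 20.01 by fold enrichment, and 22.7 and 16.9 by score. In repeat 1 it was 21.7 within 1 kb, 20.8 inside and 13.7 by nearest gene, and in repeat 2 it was 8.63 inside. No paired analysis was possible because ChIP and input cannot be set against each other here: the deposited lists hold peaks already called against the input of the same repeat, with no separate input values. The 2 repeats were matched peak by peak as a description, without a test. A site under the calling threshold is not listed, so the lack of a peak at Ccnb2 in repeat 2 is not a measured level of 0.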
